A study of Mus musculus with 8 samples.

Results

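Satellite cells taken from muscle 2.5 days after injury were compared with satellite cells isolated in the usual way from uninjured, unperfused muscle, gene by gene. The comparison covered the 10818 genes, of 24328 gene symbols in the deposited table, that reached at least 1 FPKM (fragments per length of transcript and per mapped fragments of the library) in at least 2 of the 4 libraries compared. Each condition had 2 libraries, numbered replicate 1 and replicate 2. Both groups carried the wild type label and came from C57BL/6 mice 2 months old that had not been perfused, and the kind of injury is not given in the labels. The cells were sorted from skeletal muscle as Vcam positive and CD31, CD45 and Sca-1 negative, and neither group was fixed. The other 4 libraries of the series came from uninjured Pax7-nGFP mice of the same background and age perfused with PBS or with the fixative PFA before dissection (2 libraries each). They entered the fit to estimate the spread between replicates, and they also helped set which genes were tested and adjusted over.

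Satellite cells are the stem cells of skeletal muscle. They lie between the muscle fibre and its basement membrane, express the transcription factor Pax7 and are kept out of the cell cycle by Notch, collagen V and calcitonin receptor signals. After injury they enter the cell cycle, divide as myoblasts that express Myf5 and Myod1, and then either express Myog and fuse into fibres or return to quiescence. Dissociating a muscle also switches on genes of the early stress response within the cells, so an unperfused isolate had passed through tissue digestion and sorting before its RNA was taken, and so had the injury-activated isolate.

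All 4 libraries were made from polyadenylated RNA with the same RNA, cDNA and library kits, per the labels' protocols. The summed FPKM was 547663 and 551588 in the injury-activated libraries and 482339 and 461454 in the unperfused ones, and the number of genes at 1 FPKM or more lay between 9469 and 9819 in all 4. Read depth is unknown because the table holds no counts. The injury-activated libraries were closer to each other than the unperfused pair: the median absolute difference between replicates was 0.085 and 0.292 on the log2(FPKM + 1) scale, and 38 and 365 genes differed by more than 1. The 10 most abundant genes took 8.04% and 8.47% of summed FPKM after injury and 18.3% and 21.62% without it, and Sdc4 alone stood at 28149 and 40318 FPKM in the unperfused libraries. The labels do not say that replicates came from separate animals, so the p-values cover only how far these libraries differ, which may be technical variation. The series text names 2 sequencers without saying which library ran on which, and whether sequencing runs differed between the groups was not tested.

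Most genes differed between the conditions. With limma on log2(FPKM + 1) and Benjamini-Hochberg adjustment over 12515 genes, 4970 members (45.9% of all members) were higher and 3373 (31.2%) lower in injury-activated cells at an adjusted p under 0.05, here named called, so that 8343 (77.1%) were called in either direction and 2475 were not. In all 8343 called genes the libraries of the groups did not overlap; over all members, 5785 (53.5%) lay higher without overlap and 4112 (38%) lower without overlap. The differences were large: 3993 called genes were higher by more than 1 log2 unit and 2610 lower by more than 1, and 66 and 60 passed 5 log2 units. Since so many genes were called, the count in any gene group below is read against the 45.9% and 31.2% of all members.

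The scale of the comparison matters for small differences. The median difference of all members was 0.40, and it was 0.25 when libraries were scaled by a trimmed mean and 0.12 when they were quantile normalized, so the median gene sat slightly above 0 under each. Higher genes made up 59.6% of called genes as deposited, 55.6% on the trimmed mean scale and 52.7% on the quantile scale. The threshold of membership also shaped the extremes: 1102 members passed only through the injury-activated libraries, of which 1056 were called higher, and 1102 passed only through the unperfused ones, of which 1037 were called lower, while 7919 were at 1 FPKM or more in all 4. The second-highest value was 1.0001658 FPKM for the gene just inside the threshold and 0.99921964 FPKM for the gene just outside.

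**Figure D1:**
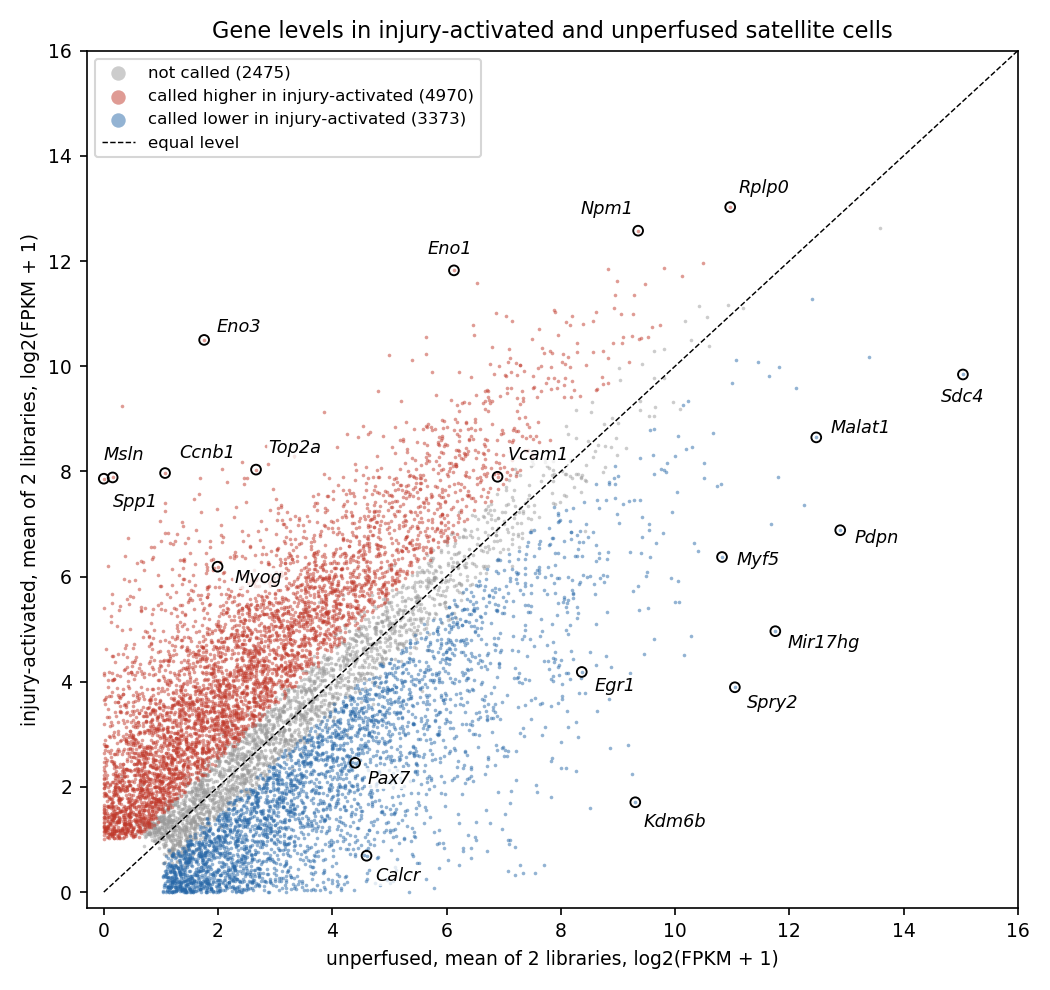
Mean level of each member in unperfused (x axis) and injury-activated (y axis) satellite cells, both as log2(FPKM + 1) over 2 libraries, with 1 point per gene, red where called higher (4970), blue where called lower (3373) and grey where not called (2475). Cell cycle and glycolysis genes such as Ccnb1 and Eno3 lie far above the dashed line of equal level, and Spry2, Kdm6b and Mir17hg lie far below it.

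Below, a gene's 4 values are given as the pair of injury-activated libraries against the pair of unperfused libraries, each pair with replicate 1 first, and a difference is the injury-activated minus the unperfused mean of log2(FPKM + 1), with the standard error of the limma fit where shown after ±. On this scale the pseudocount of 1 makes differences of genes with few FPKM smaller than their fold change.

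The largest rises included metabolic, secreted and surface protein genes. Eno3, the muscle form of the glycolytic enzyme enolase, stood at 1443 and 1452 against 2.12 and 2.66 FPKM, a difference of 8.74 ± 0.27 (limma adjusted p = 2.88e-07). Spp1, the secreted matrix protein osteopontin, stood at 228 and 243 against 0.0553 and 0.175 FPKM, a difference of 7.73 ± 0.27. Msln, which encodes the surface protein mesothelin, had 315 and 170.0 FPKM after injury and was listed at 0 in both unperfused libraries. Each of these genes was high in both injury-activated libraries and near the floor in both unperfused ones. Lgals3 (galectin-3) followed with 307 and 227 against 3.28 and 3.15 FPKM, Fabp5, a fatty acid binding protein, with 307 and 270.0 against 5.02 and 3.74 FPKM, and Il33, an alarmin cytokine, with 123 and 105 against 0.978 and 1.41 FPKM. Nrcam, a neural cell adhesion molecule, reached 88.8 and 77.6 FPKM from under 1 FPKM in each unperfused library. The entry Gm10052 had the single highest difference, 8.92, at 568 and 648 against 0.306 and 0.205 FPKM. How reads shared with near-identical copies were assigned is not given in the sources used here, so the level of such entries, and of close paralogs such as Eno1 and Eno3, is uncertain.

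The largest falls included a chromatin enzyme, a feedback inhibitor and a noncoding host transcript. Kdm6b, a histone H3 lysine 27 demethylase, stood at 2.09 and 2.45 against 547 and 728 FPKM, a difference of -7.60 ± 0.34 (limma adjusted p = 5.59e-07). Spry2, a feedback inhibitor of fibroblast growth factor signalling, stood at 13.6 and 14.2 against 1768 and 2532 FPKM, a difference of -7.15 ± 0.27. Mir17hg, the host transcript of the miR-17 to miR-92a cluster, stood at 28.9 and 31.4 against 3355 and 3563 FPKM. All 3 ranked among abundant transcripts in both unperfused libraries and were low in both injury-activated ones. Pmepa1, which restrains TGF-beta signalling, had 6.07 and 5.76 against 452 and 731 FPKM, and Dpt, the matrix protein dermatopontin, 5.81 and 5.61 against 474 and 456 FPKM. By level, the largest loss among called genes was that of Sdc4, the heparan sulphate proteoglycan syndecan-4 that marks satellite cells, at 927 and 908 against 28149 and 40318 FPKM, followed by the endoplasmic reticulum chaperone Hspa5 at 1137 and 1167 against 12369.8 and 9383 FPKM and by Pdpn (podoplanin) at 116 and 117 against 6643 and 8698 FPKM. In the uninjured perfused libraries Sdc4 was also below the unperfused pair, at 2718 and 3099 FPKM with PBS and 419.5 and 238.6 FPKM with PFA. Hspa5 stood there at 11073 and 4565 FPKM with PBS and 203 and 134 FPKM with PFA. Pdpn stood at 1009 and 1245 FPKM with PBS and 142 and 80.7 FPKM with PFA.

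The 10 largest gains by level were of mixed function. Rplp0, a stalk protein of the large ribosomal subunit, stood at 8149.5 and 8541 against 2913 and 1372 FPKM, Npm1 (nucleophosmin), a nucleolar protein of ribosome assembly, at 6026 and 6199 against 1013 and 421 FPKM, Eno1 at 3607 and 3639.5 against 91.6 and 51.9 FPKM and the mitochondrial chaperonin Hspd1 at 3586 and 3752 against 427 and 479 FPKM. Lgals1 (galectin-1) rose from 153 and 55.04 FPKM to 2936 and 3163 FPKM, and Nedd4, a ubiquitin ligase, stood at 3653 and 3813 against 1063 and 758 FPKM. The others were the ribosomal protein genes Rpl32 and Rps18, the translation factor Eef1a1 and the glycolytic enzyme Aldoa. The rise of Rplp0, at a difference of 2.06, was within the range of the whole ribosomal protein list described further on.

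The machinery of DNA replication was higher as a block. All 47 genes of the replication list, which covers origin licensing, the helicase, polymerases and clamp loaders, passed the filter and all 47 were called higher, with a median difference of 3.62 against 0.40 for all members; 12 of the 47 passed only through the injury-activated libraries. Their summed FPKM was 3676 and 3834 after injury and 329.5 and 212.5 without it. Mcm5, a subunit of the replicative helicase, stood at 212 and 233 against 6.97 and 1.51 FPKM, Cdc6, which loads that helicase, at 47.9 and 48.3 against 0.665 and 0.210 FPKM, and Gmnn (geminin), which blocks relicensing, at 48.9 and 47.9 against 0.242 and 0.510 FPKM. Uhrf1, which directs maintenance DNA methylation to replicated DNA, stood at 95.9 and 99.2 against 1.69 and 1.01 FPKM and the methyltransferase Dnmt1 at 75.2 and 85.03 against 2.83 and 2.70 FPKM. 2810417H13Rik, the PCNA-associated factor, had 145 and 156 against 2.31 and 0.346 FPKM. Each was high in both injury-activated libraries and at a few FPKM or less in both unperfused ones.

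Nucleotide synthesis followed: 26 of 30 genes were higher, 1 was lower and 3 were not called, with a median of 2.51. Rrm2 and Rrm1, the subunits of ribonucleotide reductase, stood at 732 and 738 against 27.1 and 26.8 FPKM and 216 and 216 against 5.997 and 3.27 FPKM. Tk1 (thymidine kinase) had 83.7 and 89.8 against 1.92 and 1.80 FPKM and Tyms (thymidylate synthase) 63.9 and 68.9 against 2.55 and 2.39 FPKM. The gene that fell was Uck2, a uridine-cytidine kinase, at 4.91 and 5.03 against 13.7 and 10.3 FPKM. Genes named, like Uck2, because they were the exception in their list were chosen after their values were seen.

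Among G1 and S phase regulators, 20 of 25 genes were higher, 1 was lower and 4 were not called (median 2.465, with 11 that passed only through 1 group). Cdk1, the kinase that drives mitotic entry, stood at 103 and 108 against 0.463 and 0.229 FPKM, a difference of 6.31 ± 0.27 (limma adjusted p = 5.35e-07), and E2f8, a repressive E2F factor of S phase, at 55.8 and 66.8 against 0.424 and 0.153 FPKM. Skp2, the ubiquitin ligase subunit that targets the inhibitor p27, had 70.95 and 68.01 against 1.94 and 0.775 FPKM and Ccne2 (cyclin E2) 71.7 and 65.6 against 2.72 and 2.76 FPKM. The D cyclins differed among themselves. Ccnd1 stood at 38.2 and 37.8 against 21.8 and 20.5 FPKM and was not called (limma adjusted p = 0.0531, difference 0.82), and Ccnd2 was the gene that fell, at 0.848 and 0.844 against 1.68 and 1.86 FPKM, a difference of -0.59. Ccnd3 was higher, at 11.2 and 10.4 against 4.95 and 4.28 FPKM. Cdk4, the partner of the D cyclins, was higher at 469.8 and 480.2 against 65.2 and 38.4 FPKM.

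Genes that hold cells out of the cycle went mostly the other way. Of 19 brake genes that passed the filter (Cdkn2a did not), 12 were lower, 2 higher and 5 not called, with a median of -1.41. The antiproliferative factors Btg2 and Btg1 stood at 12.4 and 11.1 against 334 and 633 FPKM and 136 and 117 against 2648 and 4047 FPKM, and the related Tob1 at 4.37 and 4.27 against 55.3 and 109.8 FPKM. Cdkn1b, which encodes the kinase inhibitor p27, stood at 3.26 and 3.97 against 57.1 and 127 FPKM, a difference of -4.23 ± 0.36. In the uninjured perfused libraries Cdkn1b was also low, at 1.88 and 3.36 FPKM with PBS and 7.61 and 9.66 FPKM with PFA. Btg1, Btg2 and Tob1 were higher in every perfused library than after injury. Cdkn1a, which encodes p21, stood at 162 and 153 against 268 and 328 FPKM, a difference of -0.91 with an adjusted p of 0.0416 in limma, and this call was lost when any 1 of the 4 libraries was left out. Cdkn1c (p57) had 12.1 and 9.87 against 24.5 and 25.98 FPKM and was not called, although the groups did not overlap. Its fitted spread also drew on the perfused pairs, at 15.9 and 67.7 FPKM with PBS and 67.5 and 147 FPKM with PFA. The 2 brakes that rose were Ccng1 (cyclin G1) at 16.6 and 13.6 against 1.87 and 1.79 FPKM and Cdkn2d (p19) at 9.95 and 10.6 against 1.49 and 2.25 FPKM.

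Mitotic kinases and spindle genes had the highest medians of the lists of function. Among mitotic kinases, cyclins and their proteolysis factors, 21 of 24 members were higher, 1 was lower and 2 were not called (median 4.25). Ccnb1, the mitotic cyclin B1, stood at 245 and 254 against 1.61 and 0.697 FPKM, a difference of 6.90 ± 0.26 (limma adjusted p = 3.97e-07). The kinases Plk1, Aurka and Bub1b had 73.9 and 77.6 against 0.885 and 0.185 FPKM, 95.1 and 102 against 1.32 and 1.13 FPKM and 168 and 184 against 2.49 and 1.54 FPKM. The exception was Wee1, the kinase that holds Cdk1 inactive, which fell, at 7.71 and 8.74 against 70.1 and 102 FPKM, while Pttg1 (securin, 16.1 and 15.80 against 20.6 and 16.6 FPKM) and Ube2s (5.71 and 5.71 against 3.84 and 2.23 FPKM) were not called. In the kinetochore list 31 of 32 were higher and 1, Zwint (29.5 and 29.8 against 24.3 and 11.3 FPKM), was not called (median 3.20). Cenpa, the centromeric histone, stood at 40.3 and 43.2 against 0.753 and 0.399 FPKM, Ndc80, which binds microtubules, at 39.7 and 36.2 against 0.833 and 0.746 FPKM and Cdca8 (borealin) at 147 and 152 against 4.13 and 1.04 FPKM.

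Of the genes of the spindle, condensin and cytokinesis, 33 of 34 were higher and 1 was lower (median 4.25). Kif20a and Kif22, mitotic kinesins, stood at 92.2 and 94.8 against 1.42 and 0.400 FPKM and 74.1 and 80.7 against 0.870 and 0.305 FPKM, and Anln (anillin), of the cleavage furrow, at 103 and 99.5 against 1.43 and 0.646 FPKM. Top2a, the topoisomerase that untangles sister chromatids, had 250.4 and 272 against 7.88 and 3.53 FPKM, and Mki67, which encodes the proliferation antigen Ki-67, 35.1 and 39.97 against 2.79 and 0.895 FPKM. The gene that fell was the condensin subunit Smc4, at 25.2 and 27.1 against 33.4 and 57.8 FPKM, a difference of -0.73. Gtse1, a microtubule-binding protein of G2 phase, stood at 172 and 163 against 1.31 and 0.908 FPKM. Between 7 and 15 members of each mitotic list passed only through the injury-activated libraries.

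These genes are known for shared promoter elements, the CCAAT box bound by NF-Y and the cell cycle genes homology region (CHR). The 150 bases before the start are printed here for 6 of the risen genes and for 2 that fell, so that the elements can be seen in place; they were picked after the matches were seen, Aurka as a risen gene with no CHR match. Capitals mark CCAAT, the CHR letters TTTGAA or TTTAAA, and the E2F letters TTCGCGC or TTGGCGC, on either strand. Sequences are from RefSeq, build GRCm38.p6, 5′ to 3′ on the gene's strand.
Ccnb1, chr13:100786487-100786636, minus strand: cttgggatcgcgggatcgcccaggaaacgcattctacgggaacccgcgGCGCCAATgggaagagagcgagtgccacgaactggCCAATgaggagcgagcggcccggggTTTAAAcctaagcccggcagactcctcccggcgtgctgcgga
Cdk1, chr10:69352913-69353062, minus strand: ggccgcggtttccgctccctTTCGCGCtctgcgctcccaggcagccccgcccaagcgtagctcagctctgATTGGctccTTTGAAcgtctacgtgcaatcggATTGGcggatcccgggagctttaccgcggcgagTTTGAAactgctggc
Top2a, chr11:99024190-99024339, minus strand: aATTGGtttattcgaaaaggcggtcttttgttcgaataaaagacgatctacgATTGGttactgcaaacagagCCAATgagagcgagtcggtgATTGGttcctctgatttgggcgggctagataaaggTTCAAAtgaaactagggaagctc
Plk1, chr7:122159285-122159434, plus strand: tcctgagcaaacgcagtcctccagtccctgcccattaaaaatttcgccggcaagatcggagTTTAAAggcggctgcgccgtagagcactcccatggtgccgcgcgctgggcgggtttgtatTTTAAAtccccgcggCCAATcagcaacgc
Mki67, chr7:135716380-135716529, minus strand: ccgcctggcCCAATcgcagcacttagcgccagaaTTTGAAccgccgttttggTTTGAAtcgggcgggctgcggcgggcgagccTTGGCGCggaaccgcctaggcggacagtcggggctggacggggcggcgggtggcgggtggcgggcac
Aurka, chr2:172370571-172370720, minus strand: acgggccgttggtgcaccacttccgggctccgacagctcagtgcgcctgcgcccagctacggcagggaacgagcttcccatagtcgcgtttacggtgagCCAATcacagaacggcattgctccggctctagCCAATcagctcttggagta
Sdc4, chr2:164443189-164443338, minus strand: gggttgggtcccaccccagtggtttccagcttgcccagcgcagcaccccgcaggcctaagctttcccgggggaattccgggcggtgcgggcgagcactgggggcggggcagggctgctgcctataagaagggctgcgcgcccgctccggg
Myf5, chr10:107486135-107486284, minus strand: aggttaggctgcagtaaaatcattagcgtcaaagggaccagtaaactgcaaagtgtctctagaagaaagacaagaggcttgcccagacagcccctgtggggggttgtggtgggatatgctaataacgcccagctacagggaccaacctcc

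Of 16 risen genes whose 150 bases were searched, 8 had both a CCAAT and a CHR match. These 8 included Spp1, which encodes a matrix protein and is not in the cell cycle lists. Another 6 had no CHR match (Aurka, Bub1b, Ccnb2, Mcm5, Pcna and Rrm2) and 2 had no CCAAT match (Mcm2 and Tk1). Top2a had 4 CCAAT matches, and in Ccnb1 an E2F match and a CCAAT match overlap. The 5 genes searched that fell, among them Sdc4 and Myf5, had no match to any of the 3 motifs. The 16 and 5 genes were chosen by hand, so these counts cannot compare risen with fallen genes. Over the whole 300-base windows (250 before to 50 after the start), the CHR letters were found in 80.6% of 31 matched spindle genes and 60.7% of 28 matched kinetochore genes, against 21.6% of 4034 matched members called higher and 27.8% of 27025 promoters of the table, taken as 1 per gene with chromosome 18 not used here. CCAAT was found in 67.7% and 71.4% of those lists, against 41.9% and 37.9%. Of members called lower, 74.6% were matched, under the 80% used below. In these 2515 promoters, CCAAT was found in 36.7% and the CHR letters in 17.4%. CCAAT was also frequent in lists that were not mostly higher, at 87% of 23 unfolded protein response genes, 78.6% of 14 clock genes and 61.1% of 18 brake genes. Under 80% of members were matched for 3 other cell cycle lists, which voids the comparison there. Their CHR shares, given without a comparison, were 16.2% of 37 replication genes, 63.2% of 19 mitotic kinase genes and 36.8% of 19 G1 genes. A match is a description of letters and does not show that a factor binds.

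Repair and chromatin assembly genes were mostly higher. Of 27 homologous recombination and Fanconi genes, 23 were higher, 1 lower (Msh6, 3.85 and 3.18 against 6.602 and 6.97 FPKM) and 3 not called, with a median of 2.16. Exo1, a resecting nuclease, stood at 30.5 and 31.9 against 0.440 and 0.317 FPKM and Rad54l, which remodels recombining DNA, at 51.8 and 57.7 against 3.39 and 2.71 FPKM. Of 33 replication-dependent histone genes only 15 passed the filter, 11 of them called higher and 4 not called, and their transcripts mostly lack a poly(A) tail, so these libraries sample them poorly. Hist1h1b had 35.4 and 60.7 against 0.437 and 0.215 FPKM and Hist1h4d 63.1 and 94.6 against 2.32 and 1.12 FPKM. Among variant histones and chaperones, 16 of 21 were higher and 1, H2afy (macroH2A, 41.3 and 42.3 against 67.4 and 63.2 FPKM), lower. Asf1b, a histone chaperone of S phase, stood at 184 and 194 against 3.54 and 1.22 FPKM, H2afz (H2A.Z) at 1427 and 1498 against 238 and 135 FPKM, and Hmga2, a chromatin protein of fetal and growing cells, at 45.4 and 42.7 against 0.0780 and 0.127 FPKM.

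**Figure D2:**
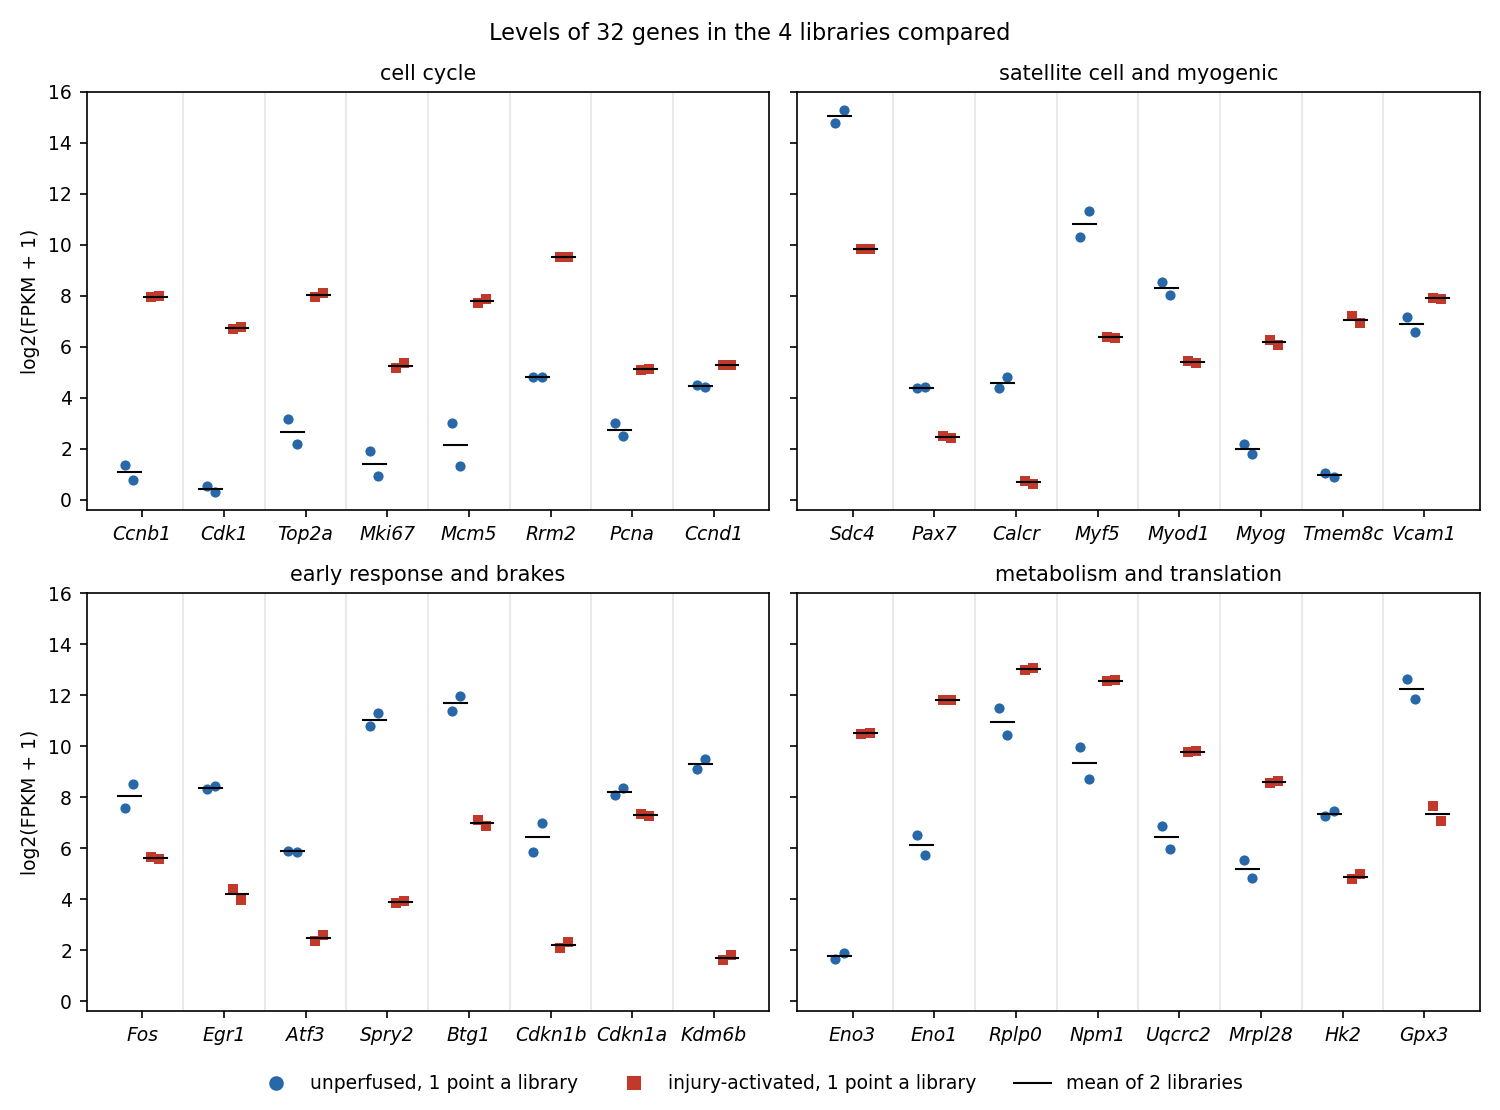
Log2(FPKM + 1) of 32 genes in each of the 4 libraries, in 4 panels (cell cycle, satellite and myogenic genes, early response and brakes, metabolism), with 1 point per library and the groups in separate colours. Ccnb1, Cdk1 and Eno3 show the widest gaps upward, Spry2 and Kdm6b the widest downward, and the points of Ccnd1 lie close together.

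Genes of the quiescent satellite cell were mostly lower after injury. Of 36 quiescence genes that passed the filter (Hes1, Sox8 and Foxo3 did not), 27 were lower, 6 higher and 3 not called, with a median of -2.215. Pax7 stood at 4.59 and 4.40 against 19.8 and 20.4 FPKM, a difference of -1.94 ± 0.31 (limma adjusted p = 4.33e-04). Calcr, the calcitonin receptor, was below 1 FPKM after injury, at 0.682 and 0.548 against 19.9 and 27.2 FPKM. Both libraries of each group agreed closely on these genes. Tenm4 (a teneurin) had 1.24 and 1.35 against 110.0 and 139.7 FPKM, Chodl (chondrolectin) 6.28 and 4.70 against 142 and 127 FPKM, and Gpx3, a secreted glutathione peroxidase, 201 and 132 against 6457 and 3704 FPKM. Spry1, the Sprouty family member known from quiescent satellite cells, fell by less than Spry2, at 1.07 and 1.11 against 10.7 and 6.94 FPKM, and Cd34 stood at 15.77 and 12.9 against 37.4 and 28.8 FPKM.

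The unperfused cells themselves did not carry the Pax7 level of perfused muscle. Pax7 was 48.3 and 79.6 FPKM in the PBS-perfused and 328 and 567 FPKM in the PFA-perfused libraries, from mice of another genotype label, so that genotype, perfusion and fixation cannot be told apart in that difference. Hes1, the classical Notch target, was under 1 FPKM in all 4 compared libraries (0.559 and 0.578 against 0.341 and 0.666 FPKM) and stood at 29.3 and 34.3 FPKM in the PBS-perfused ones.

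A few quiescence-list genes rose. Cdh2 (N-cadherin) stood at 47.01 and 41.3 against 1.40 and 0.660 FPKM and Hes6, a Hes family member that opposes Hes1, at 13.03 and 10.3 against 0.693 and 0.801 FPKM. Vcam1, the antigen used for sorting, stood at 241 and 234 against 145 and 95.97 FPKM, a difference of 1.00 with an adjusted p of 0.0139 in limma, and the call was lost under quantile normalization (limma adjusted p = 0.0694) and without either injury-activated library or without unperfused replicate 2 (0.0658 to 0.077). The others that rose were Met, the hepatocyte growth factor receptor (167 and 145 against 75.5 and 58.8 FPKM), Sdc3 (5.57 and 5.71 against 3.06 and 2.39 FPKM) and Ltbp1 (319 and 295 against 191 and 170.1 FPKM). Cdh15 (M-cadherin) and Itga7, surface proteins of the whole myogenic lineage, were not called, at 36.8 and 39.7 against 52.8 and 32.5 FPKM and 146 and 144 against 170.0 and 124 FPKM, with overlapping groups.

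The myogenic regulators split. Myf5 and Myod1, the determination factors, were lower after injury, at 82.8 and 80.9 against 1261 and 2598 FPKM and 42.8 and 40.7 against 377 and 259 FPKM, with differences of -4.45 ± 0.38 and -2.87 ± 0.26. Myog, which starts differentiation, was higher, at 76.9 and 67.2 against 3.62 and 2.43 FPKM, a difference of 4.20 ± 0.75 (limma adjusted p = 8.34e-04). Tmem8c, which encodes the fusion protein myomaker, stood at 147 and 120.0 against 1.09 and 0.857 FPKM, from about 1 FPKM in each unperfused library. Of 30 commitment and differentiation genes that passed the filter, of 34, 19 were higher, 5 lower and 6 not called (median 1.48, 9 through only 1 group). The troponins Tnni1, Tnnt2 and Tnnc2 stood at 21.8 and 20.9 against 0.0771 and 0.173 FPKM, 26.04 and 22.1 against 0.122 and 0.815 FPKM and 49.05 and 49.2 against 3.56 and 1.15 FPKM, and Acta1, skeletal alpha-actin, at 133 and 93.9 against 9.60 and 5.18 FPKM. Des (desmin) was among those that fell, at 44.5 and 36.3 against 120.4 and 114 FPKM, with Megf10 and Mef2d.

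Contractile transcripts can also come from fibre debris, so the fibre markers are given here. Of 14, 7 passed the filter, of which 6 were higher and 1 (Ckm, 2.97 and 1.81 against 1.63 and 1.10 FPKM) was not called, with summed FPKM of 243 and 199.5 after injury against 38.4 and 35.4. The adult fast myosin Myh4, which defines mature fibres, stood at 0.176 and 0.0768 against 0.211 and 0.349 FPKM, below 1 FPKM in all 4 libraries, and the embryonic myosin Myh3 at 0.930 and 0.627 against 0.0131 and 0.00492 FPKM. The part of fibre RNA in the troponin values was not tested.

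Genes of the early response to stress and growth signals were lower after injury than in unperfused cells. Of 33 immediate early and AP-1 genes that passed the filter, of 37, none was called higher, 29 were lower and 4 were not called (median -2.83), and no member was higher at an unadjusted limma p under 0.05 either. Egr1 stood at 20.05 and 14.7 against 316 and 343 FPKM, a difference of -4.18 ± 0.36 (limma adjusted p = 1.03e-05), Fos at 49.7 and 46.6 against 192 and 369 FPKM and Atf3 at 4.11 and 5.01 against 58.2 and 57.4 FPKM. Mafk, a small Maf partner factor, had 8.59 and 8.31 against 339.6 and 278 FPKM and Egr2 3.85 and 4.91 against 116 and 113 FPKM. Myc, a transcription factor that drives cell growth, was lower, at 11.9 and 9.61 against 96.4 and 102 FPKM. The unperfused libraries were above the injury-activated ones in each. Ctgf stood at 3.50 and 3.16 against 188 and 40.3 FPKM, with the unperfused replicates far apart. The 4 not called were Ier3 at 14.5 and 15.6 against 23.5 and 11.6 FPKM, Klf6 at 371 and 352 against 378 and 427 FPKM, Klf10 at 111 and 103 against 76.5 and 77.6 FPKM and Dusp6 at 21.6 and 22.6 against 21.9 and 18.7 FPKM.

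Set beside the perfused groups, the injury-activated cells had the lowest median of the early response list. The median log2(FPKM + 1) of these 33 genes was 2.84 and 2.75 after injury, 5.76 and 5.53 in unperfused, 6.97 and 7.26 in PBS-perfused and 3.70 and 3.26 in PFA-perfused libraries. Single genes differed: Egr1 was 393 and 181 FPKM and Fos 57.3 and 38.2 FPKM in PFA-perfused libraries, while Atf3 was 1.24 and 0.523 FPKM, below the pair after injury. The injured and perfused groups differ in treatment and genotype label and were not compared by a test here.

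The growth factor brakes and receptors went both ways. Of 20 Sprouty, Spred and Dusp family genes and their Etv targets that passed, 10 were lower, 5 higher and 5 not called (median -0.69). Spry4 stood at 6.49 and 7.46 against 170.2 and 239.8 FPKM, Spred1 at 5.33 and 4.67 against 42.6 and 41.2 FPKM and Dusp3 at 62.8 and 66.3 against 326 and 558 FPKM, whereas the 5 that rose were Dusp14, Dusp9 and the Ets factors Etv1, Etv4 and Etv5. Among growth factor receptors 8 of 18 were lower, 4 higher and 6 not called. Fgfr1 stood at 17.04 and 14.8 against 347 and 305 FPKM and Igf1r, the insulin-like growth factor receptor, at 6.91 and 6.40 against 58.7 and 81.3 FPKM. Axl, a receptor for Gas6, was higher at 157 and 148 against 19.6 and 9.84 FPKM.

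Notch and TGF-beta family genes were mostly lower. Of 24 Notch pathway genes 15 passed the filter, of which 10 were lower, 3 higher and 2 not called (median -1.37). The receptors Notch2 and Notch3 stood at 7.49 and 8.22 against 166 and 269 FPKM and 4.30 and 3.93 against 72.6 and 82.3 FPKM, the ligand Jag1 at 3.09 and 3.08 against 151 and 234 FPKM, and the target Heyl at 25.4 and 22.7 against 74.8 and 56.1 FPKM. In the uninjured perfused libraries Notch2 was also low, at 4.90 and 10.5 FPKM with PBS and 20.6 and 31.3 FPKM with PFA. Heyl was high there, at 178 and 127 FPKM with PBS and 450.4 and 375 FPKM with PFA. The genes that rose were Hes6, the ligand Dll1 (6.80 and 6.51 against 1.78 and 1.09 FPKM) and Jag2 (1.57 and 1.32 against 0.0709 and 0.270 FPKM). Of 25 TGF-beta and BMP genes that passed, 18 were lower, 4 higher and 3 not called (median -1.46). Ltbp4, which binds latent TGF-beta in the matrix, stood at 4.73 and 3.62 against 319.8 and 231 FPKM, the coreceptor Tgfbr3 at 1.19 and 0.746 against 37.6 and 43.4 FPKM and Bmp4 at 2.27 and 1.06 against 32.7 and 39.97 FPKM; those that rose included Inhba, Ltbp1 and Ltbp2. Of 31 Wnt genes only 12 passed, with 7 lower, 1 higher (Tcf7, 2.43 and 1.87 against 0.503 and 0.984 FPKM) and 4 not called.

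Inflammatory genes did not move as a block. Among 23 chemokine and cytokine genes that passed, 8 were higher, 10 lower and 5 not called. Besides Spp1 and Il33, the higher ones included the Il33 receptor Il1rl1 at 15.4 and 17.8 against 0.343 and 0.0187 FPKM and the macrophage growth factor Il34 at 28.4 and 23.9 against 1.88 and 0.676 FPKM. The receptors of oncostatin M and leukaemia inhibitory factor, Osmr and Lifr, were lower, at 17.8 and 20.1 against 240.0 and 259 FPKM and 10.4 and 9.07 against 88.2 and 147 FPKM. Of 16 NF-kB factors and inhibitors 12 were lower, 1 higher and 3 not called (median -1.10). Nfkb1 stood at 21.6 and 19.9 against 297 and 294 FPKM, Relb at 2.03 and 1.96 against 26.7 and 36.6 FPKM and the adhesion molecule Icam1 at 9.51 and 7.96 against 56.6 and 52.6 FPKM. Traf1, the gene that rose, stood at 6.38 and 6.38 against 0 and 0.0204 FPKM.

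Interferon and antigen presentation genes were lower more often than higher. Of 31 interferon response genes that passed, 21 were lower, 5 higher and 5 not called (median -1.03). Gbp2 and Iigp1, interferon-induced GTPases, stood at 4.08 and 3.81 against 50.3 and 45.04 FPKM and 0.866 and 1.74 against 18.2 and 15.6 FPKM, and Irf8 at 0.202 and 0.194 against 7.02 and 8.74 FPKM, while Ifit2 was higher at 9.96 and 9.82 against 1.58 and 1.46 FPKM. In the class I list 9 of 17 were lower, 5 higher and 3 not called. H2-K1, a class I heavy chain, stood at 29.6 and 25.1 against 592 and 1057 FPKM, but its partner beta-2-microglobulin (B2m) was not called, at 71.4 and 76.1 against 74.1 and 81.6 FPKM. Psmb10, an immunoproteasome subunit, was higher at 76.2 and 77.1 against 7.35 and 5.42 FPKM. Class I genes are near-identical copies, so their separate levels are uncertain.

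**Figure D3:**
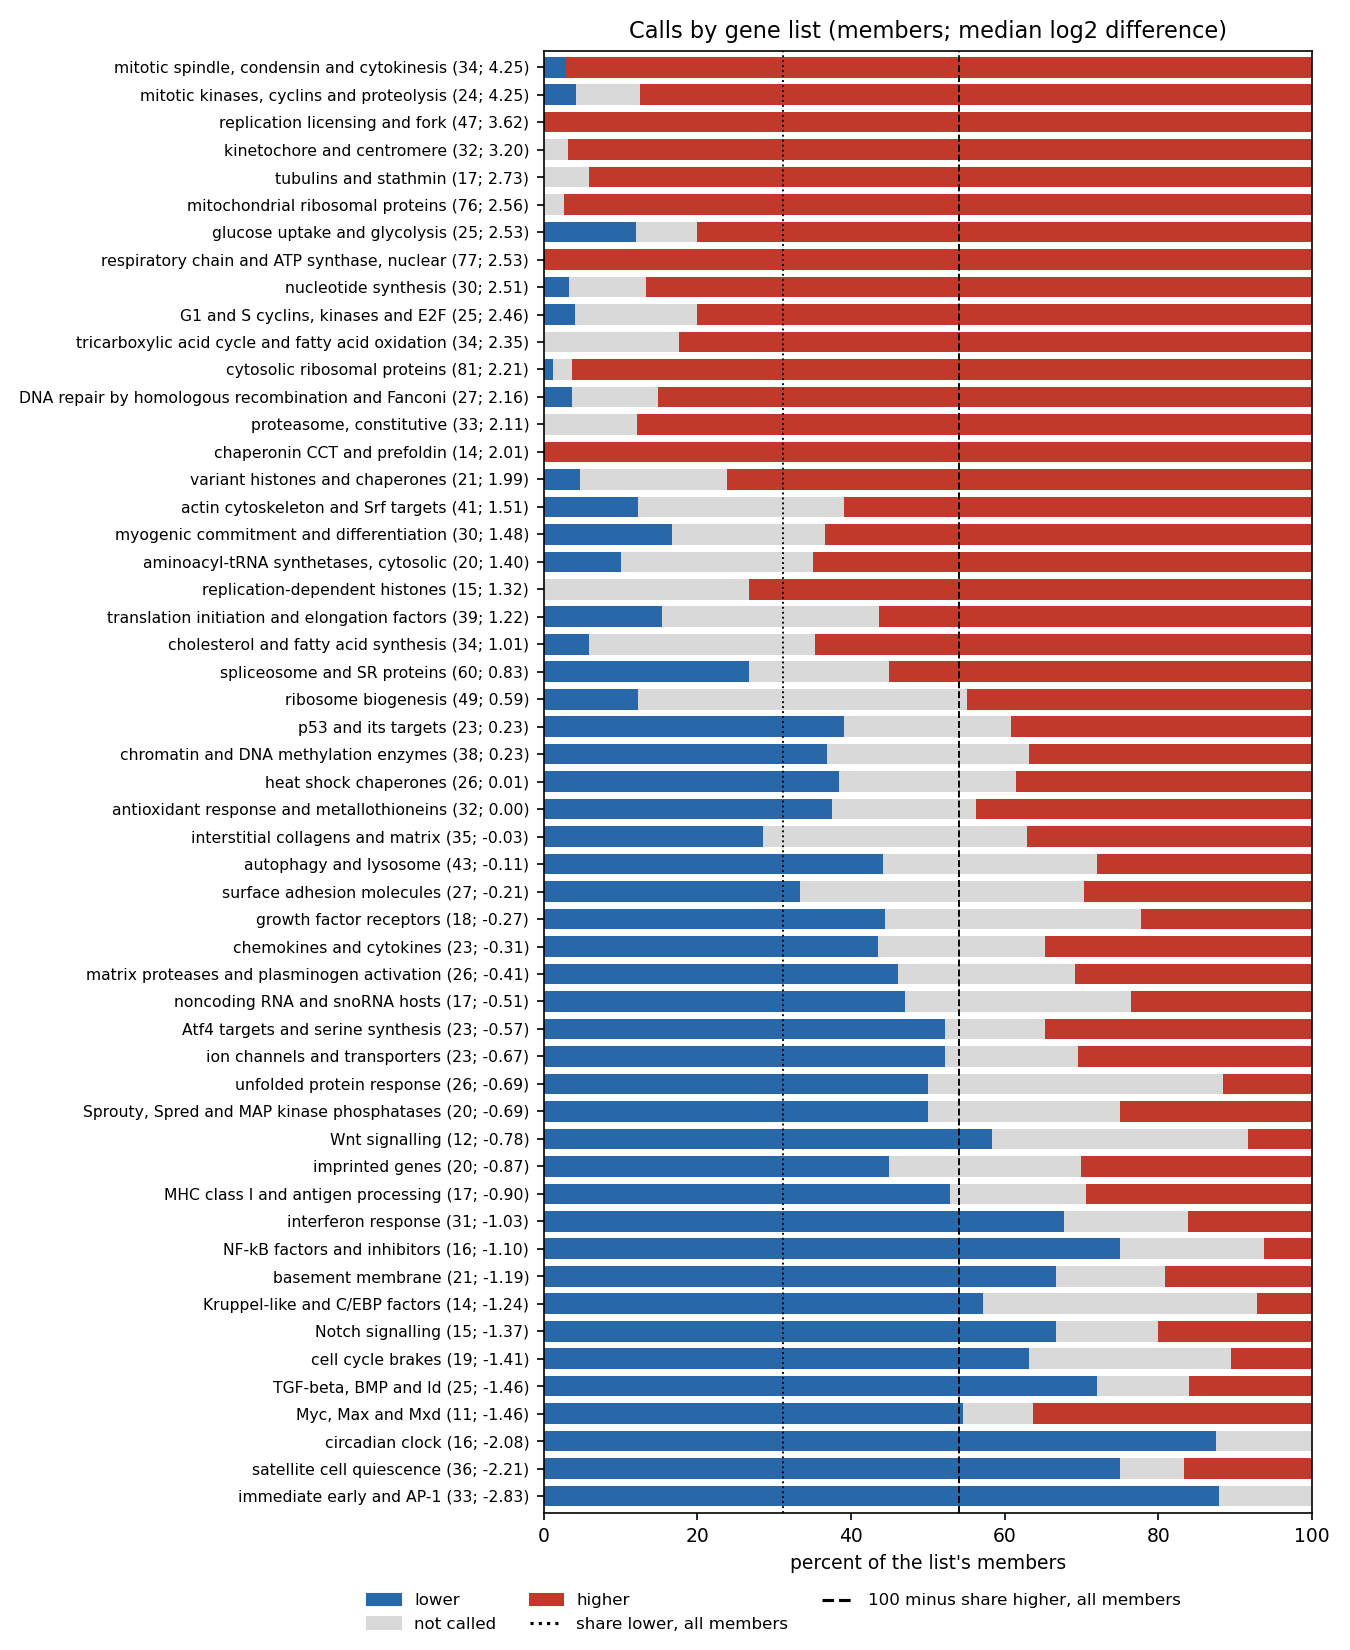
For each gene list of function with members, the percent of members called lower, not called and called higher in injury-activated cells (stacked bars, x axis from 0 to 100 percent). The dotted line marks the 31.2% of all members called lower and the dashed line the point above which 45.9% of all members lie as called higher. Replication, mitosis, respiratory chain and ribosomal lists fill with higher calls, and the early response, clock, NF-kB and quiescence lists with lower calls.

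Nuclear genes of the mitochondrion rose together. All 77 nuclear genes of the respiratory chain and ATP synthase were called higher (median 2.53), as were 74 of 76 mitochondrial ribosomal proteins (median 2.56), with Mrps25 (38.4 and 41.7 against 42.5 and 45.9 FPKM) and Mrps30 (3.57 and 3.87 against 3.50 and 2.87 FPKM) not called. Atp5g2, of the ATP synthase ring, stood at 344 and 362 against 25.1 and 10.1 FPKM, Ndufa9, of complex I, at 232 and 232 against 18.3 and 11.1 FPKM and Sdhd, of complex II, at 95.97 and 94.7 against 6.56 and 3.57 FPKM. Mrpl34 and Mrpl51, of the large mitochondrial ribosomal subunit, had 58.3 and 63.01 against 2.15 and 1.18 FPKM and 158 and 162 against 12.1 and 4.68 FPKM. In each, unperfused replicate 2 was the lowest library, below replicate 1. In the tricarboxylic acid cycle and fatty acid oxidation list 28 of 34 were higher and 6 were not called (median 2.35). Cs (citrate synthase) stood at 427 and 428 against 31.9 and 18.5 FPKM and Fh1 (fumarase) at 65.9 and 68.1 against 5.34 and 1.92 FPKM. Genes encoded by mitochondrial DNA were not analysed here.

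Glycolysis was also higher. Of 25 glucose uptake and glycolysis genes that passed, of 29, 20 were higher, 3 lower and 2 not called (median 2.53). Gapdh stood at 1778 and 1729 against 116 and 66.1 FPKM, Tpi1 at 124 and 125 against 3.85 and 2.54 FPKM and Pgk1 at 963 and 940.3 against 75.7 and 36.7 FPKM. The 3 that fell were the hexokinase Hk2 (26.6 and 30.4 against 154 and 173 FPKM), the glucose transporter Slc2a3 (16.3 and 14.7 against 48.5 and 45.2 FPKM) and the lactate exporter Slc16a3 (0.743 and 0.420 against 2.82 and 4.65 FPKM). Across all 8 libraries the unperfused pair was the lowest in the respiratory list. Its median log2(FPKM + 1) was 7.39 and 7.52 after injury, 5.45 and 4.47 in unperfused, 6.25 and 5.88 in PBS-perfused and 7.17 and 7.03 in PFA-perfused libraries. The fixed, PFA-perfused libraries thus lay near the injury-activated ones in this list, and the difference between those groups was not tested.

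Most cytosolic ribosomal protein genes were higher. Of 81 cytosolic ribosomal proteins 78 were higher, 2 (Rpl5, 1240.4 and 1262 against 759 and 824 FPKM, and Rpl13, 965 and 1029.8 against 753 and 352 FPKM) were not called and 1, Rps25, was lower at 1074 and 1149 against 2179 and 2137 FPKM, with a median of 2.21. Rpl37a stood at 1237 and 1418 against 188 and 64.5 FPKM and Rps20 at 996 and 1066 against 145 and 98.5 FPKM. Ribosomal proteins have many processed copies in the genome, so single members are uncertain, and the call of Rps18 was lost without injury-activated replicate 2 or unperfused replicate 2. Ribosome biogenesis factors were less uniform, with 22 of 49 higher, 6 lower and 21 not called (median 0.59). Polr1a, the largest subunit of RNA polymerase I, stood at 196 and 209 against 55.5 and 31.4 FPKM and Dkc1 (dyskerin) at 199 and 191 against 55.6 and 34.6 FPKM, whereas the methyltransferase Fbl (fibrillarin) fell, at 12.5 and 12.3 against 63.1 and 61.5 FPKM. Of 39 translation factors 22 were higher, 6 lower and 11 not called, with Eef1d at 205 and 231 against 32.97 and 15.9 FPKM and, among those lower, the helicase Eif4a1 at 301 and 324 against 1109 and 936 FPKM. Of 20 cytosolic tRNA synthetases 13 were higher, 2 lower (Yars and Gars) and 5 not called.

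The chaperone lists did not share a direction. All 14 chaperonin CCT and prefoldin genes, which fold actin and tubulin, were higher (median 2.01), with Tcp1 at 712 and 691 against 122 and 67.7 FPKM and Cct8 at 569.6 and 566 against 97.5 and 55.3 FPKM. Of 26 heat shock chaperones 10 were higher, 10 lower and 6 not called, and their median of 0.005 turned to -0.205 on the trimmed mean scale and -0.303 on the quantile scale. The stress-inducible Hspa1a and Hspa1b, near-identical copies, stood at 0.900 and 0.900 against 33.5 and 109 FPKM and 0.506 and 0.652 against 14.5 and 49.3 FPKM, and their cochaperones Bag3 and Dnajb1 at 18.5 and 17.3 against 201 and 243 FPKM and 27.6 and 30.3 against 196 and 396 FPKM. Of 26 unfolded protein response genes 13 were lower, 3 higher and 10 not called (median -0.69). Herpud1, of endoplasmic reticulum degradation, stood at 50.98 and 52.7 against 584 and 647 FPKM and Edem1 at 2.17 and 2.13 against 32.96 and 31.8 FPKM. Of 33 proteasome genes 29 were higher and 4 not called (median 2.11), with Psmb7 at 340.3 and 347 against 50.02 and 29.6 FPKM.

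Amino acid genes under Atf4 did not share a direction. Of 23 that passed, 8 were higher, 12 lower and 3 not called. Asns (asparagine synthetase) stood at 163 and 162 against 10.9 and 5.21 FPKM, and the serine synthesis enzymes Phgdh and Psat1 at 89.6 and 87.2 against 7.51 and 5.72 FPKM and 202 and 196 against 22.7 and 12.99 FPKM. Slc7a11, the cystine transporter, was lower at 0.814 and 0.939 against 23.2 and 7.84 FPKM, as was Vldlr, a lipoprotein receptor, at 0.707 and 0.754 against 35.9 and 27.5 FPKM. In the sterol and fatty acid synthesis list 22 of 34 were higher, 2 lower and 10 not called (median 1.01). Dhcr7 stood at 10.4 and 9.81 against 1.27 and 0.512 FPKM, Idi1 at 50.6 and 34.7 against 7.94 and 4.81 FPKM and Lss (lanosterol synthase) at 70.7 and 45.3 against 10.3 and 9.57 FPKM, and injury-activated replicate 1 was the higher of the pair in all 3. Insig1, the sterol-regulated inhibitor of this pathway, was lower at 11.1 and 8.75 against 204 and 368 FPKM, and so was Scd1.

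The antioxidant genes went both ways too. Of 32 that passed, 14 were higher, 12 lower and 6 not called, with a median of -0.001 that took either sign when a library was left out. The thioredoxin Txn1 and the mitochondrial peroxiredoxin Prdx3 stood at 124 and 127 against 13.02 and 6.94 FPKM and 409 and 411 against 38.7 and 20.9 FPKM. Srxn1 (sulfiredoxin) and Gclm, of glutathione synthesis, both induced by Nrf2, were lower, at 8.32 and 7.18 against 170.4 and 151 FPKM and 1.81 and 1.68 against 36.7 and 38.3 FPKM. Genes known as Nrf2 targets were found in each class: Gclc and Txnrd1 were lower, Prdx1 was higher, and Hmox1 (heme oxygenase), at 107 and 124 against 687 and 172 FPKM, and Nqo1, at 3.03 and 2.16 against 1.95 and 1.498 FPKM, were not called.

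Splicing genes went both ways. Of 60, 33 were higher, 16 lower and 11 not called (median 0.83). Lsm5 and Prpf31, of the core particles, stood at 87.3 and 87.6 against 5.63 and 2.62 FPKM and 104 and 108 against 11.5 and 5.60 FPKM. Srsf2, an SR protein, was lower at 29.1 and 27.4 against 967 and 1592 FPKM, and Clk1, the kinase of SR proteins, at 25.4 and 20.4 against 199 and 283 FPKM. The lower genes included 6 Srsf proteins and the kinases Clk1 and Clk4, and no Srsf gene was called higher, nor was any higher at an unadjusted limma p under 0.05. The core proteins Sf3a2 and Snrnp70 were lower too, and hnRNP genes were called in both directions, Hnrnpa2b1 higher at 353 and 370.5 against 75.2 and 43.6 FPKM and Hnrnpl lower at 22.8 and 24.04 against 106 and 142 FPKM. Dek, a chromatin protein also listed with splicing factors, was not called, at 380.0 and 418 against 393 and 631 FPKM (limma adjusted p = 0.426), and the groups overlapped.

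Chromatin enzymes split evenly. Of 38 that passed, 14 were higher, 14 lower and 10 not called, and their median of 0.23 turned to -0.06 under quantile normalization. Those lower included Kdm6b, the class II deacetylase Hdac4 at 2.08 and 1.51 against 66.7 and 79.3 FPKM, the methylcytosine oxidase Tet2 at 8.71 and 8.99 against 92.1 and 116 FPKM and the demethylase Kdm5b at 1.19 and 1.02 against 18.9 and 21.1 FPKM. Those higher included Dnmt1 and the arginine methyltransferase Prmt7 at 76.8 and 76.9 against 11.95 and 6.62 FPKM. In the Myc network 4 of 11 were higher, 6 lower and 1 not called: Max, the partner of Myc, stood at 49.8 and 53.7 against 13.1 and 14.1 FPKM and the antagonist Mxi1 at 2.97 and 3.05 against 14.3 and 20.6 FPKM. In the p53 list 9 of 23 were higher, 9 lower and 5 not called, with a median of 0.23 that turned to -0.07 under quantile normalization. Trp53 stood at 149 and 152 against 37.1 and 18.5 FPKM and Bax at 66.9 and 70.7 against 10.4 and 6.56 FPKM, while the death receptor Fas was lower at 5.70 and 5.77 against 106 and 148 FPKM.

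Genes of the circadian clock were lower. Of 16 that passed, of 18, 14 were lower, none higher and 2 not called (Bhlhe40, 24.8 and 22.9 against 34.6 and 33.3 FPKM, and Ciart, 5.52 and 6.67 against 8.11 and 4.99 FPKM), with a median of -2.08. Rora, an activator of the clock, stood at 1.89 and 2.04 against 42.98 and 55.2 FPKM, Arntl, which encodes the core factor Bmal1, at 4.37 and 3.62 against 31.3 and 37.4 FPKM and Nr1d2, which encodes a Rev-erb repressor, at 4.81 and 6.996 against 46.4 and 37.4 FPKM. The time of day at which muscle was taken is not given in the labels, so it cannot be told apart from the condition. Klf9, a clock- and glucocorticoid-regulated factor, stood at 10.7 and 11.6 against 234 and 257 FPKM, and of 14 Kruppel-like and C/EBP genes 8 were lower, 1 higher (Klf5, 2.13 and 1.90 against 1.10 and 0.645 FPKM) and 5 not called.

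**Figure D4:**
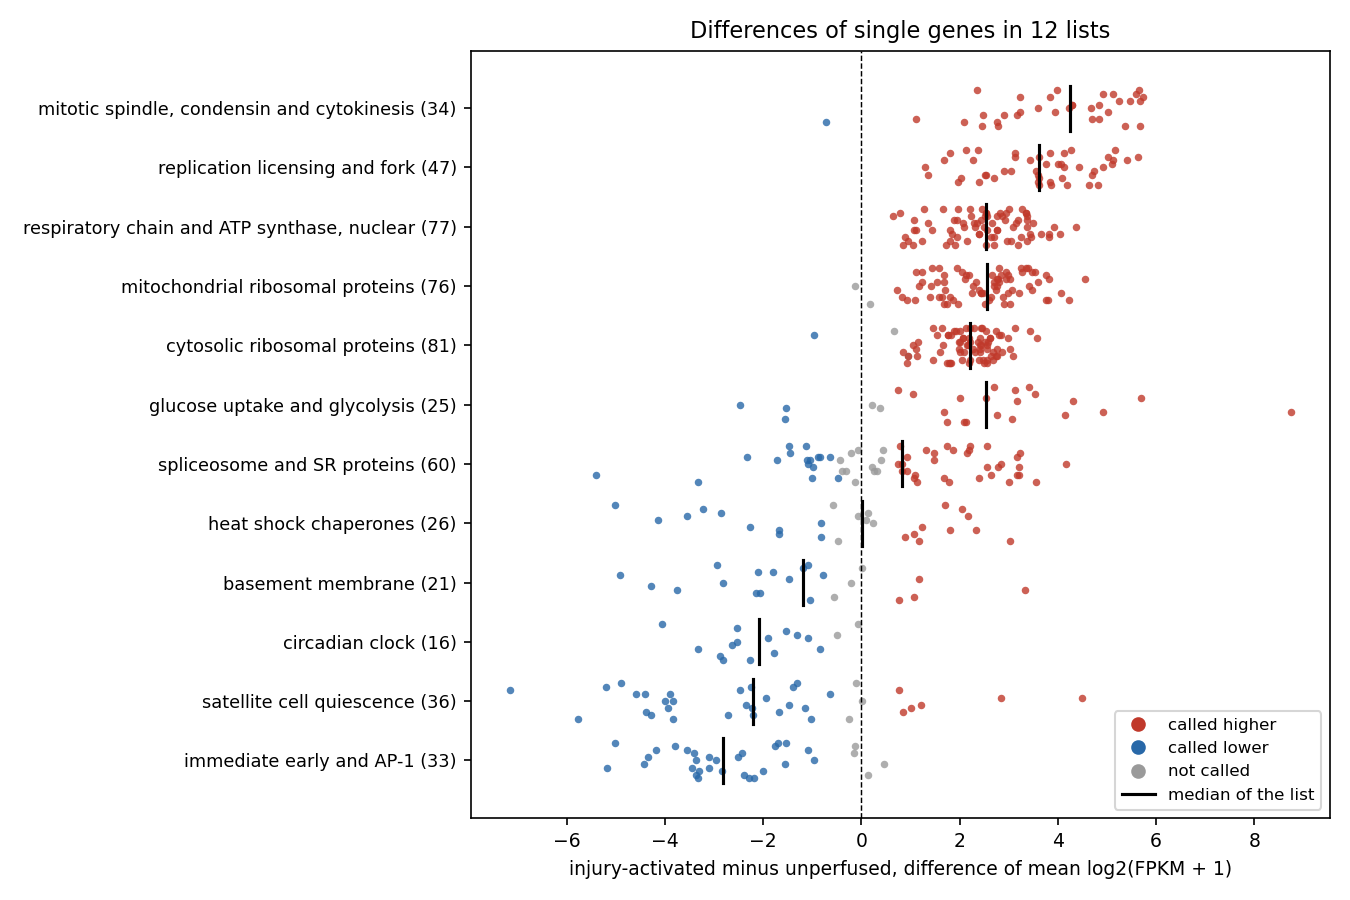
Difference in log2(FPKM + 1), injury-activated minus unperfused, for each member of 12 lists (1 point per gene, x axis in log2 units), with the list median as a line. Spindle and replication genes lie almost wholly above 0, early response and clock genes below it, and the heat shock list lies on both sides.

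Interstitial matrix genes were called no more often than members at large. Of 35 interstitial matrix genes that passed, 13 were higher, 10 lower and 12 not called, with a median of -0.03 that changed sign when a library was left out. Thbs1 and Thbs4 (thrombospondins) were higher, at 248.7 and 228 against 26.03 and 24.7 FPKM and 64.1 and 38.7 against 5.46 and 3.09 FPKM. Col15a1 stood at 0.0313 and 0.0291 against 20.7 and 19.05 FPKM, Col5a3, of the collagen V family that acts on the calcitonin receptor, at 1.74 and 1.24 against 30.9 and 38.1 FPKM, and Col3a1 at 20.9 and 19.3 against 271 and 175 FPKM. Basement membrane genes were mostly lower: of 21 that passed, of 26, 14 were lower, 4 higher and 3 not called (median -1.19). Col4a1 and Col4a2, the collagen IV chains, stood at 0.985 and 0.860 against 57.9 and 57.00 FPKM and 0.289 and 0.235 against 14.8 and 17.3 FPKM, the laminin chain Lamb2 at 11.6 and 11.9 against 102 and 92.4 FPKM and Lama3 at 0.681 and 1.91 against 36.7 and 48.7 FPKM. Lamb1 ran the other way, at 379 and 380.1 against 41.99 and 32.2 FPKM, as did Lamb3, Lama4 and Itgb4.

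Proteases and adhesion molecules were mixed. Of 26 proteases and inhibitors that passed, 8 were higher, 12 lower and 6 not called. Adam8 stood at 70.7 and 58.7 against 1.59 and 2.32 FPKM and the inhibitor Timp1 at 33.3 and 31.8 against 3.80 and 2.22 FPKM, whereas Adamts1, Mmp2 and the urokinase receptor Plaur had 14.7 and 16.4 against 264 and 311 FPKM, 5.69 and 3.71 against 72.6 and 72.3 FPKM and 131 and 125 against 906 and 616 FPKM. Of 27 adhesion molecules 8 were higher, 9 lower and 10 not called. Autophagy and lysosome genes were 12 higher, 19 lower and 12 not called of 43. Gabarapl1, of the autophagosome, stood at 21.98 and 21.02 against 464 and 425 FPKM and Wipi2 at 8.88 and 8.64 against 96.8 and 89.6 FPKM, while the lysosomal protease Ctsl was higher at 616 and 646 against 87.8 and 78.4 FPKM.

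Cytoskeletal genes were mostly higher. Of 17 tubulin and stathmin genes that passed, 16 were higher and 1 (Mapre1, 300.2 and 289 against 319 and 256 FPKM) was not called (median 2.73). Tuba1b and Tuba1a stood at 1183 and 1193 against 36.8 and 25.7 FPKM and 1323 and 1104 against 60.01 and 39.8 FPKM, Tubb3 at 131 and 98.3 against 0.652 and 1.65 FPKM, and Stmn1 (stathmin), which destabilises microtubules, at 232 and 238 against 8.001 and 2.30 FPKM. Of 41 actin cytoskeleton genes 25 were higher, 5 lower and 11 not called (median 1.51). Actg1 stood at 709 and 698 against 74.4 and 41.3 FPKM and Tmsb10, a thymosin that binds actin monomers, at 1500.1 and 1608 against 134 and 57.9 FPKM. Actb, among the most abundant transcripts, was not called, at 5841 and 6794 against 11065 and 13669 FPKM. Among 23 ion channel and transporter genes that passed, 7 were higher, 12 lower and 4 not called: Cacng1, a subunit of the muscle calcium channel, stood at 47.7 and 38.7 against 1.296 and 0.629 FPKM. The muscle filamin Flnc was lower, at 106 and 92.9 against 1493 and 1101 FPKM.

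Long noncoding RNAs and imprinted genes are described together because the lists share members. Of 17 noncoding hosts that passed, 8 were lower, 4 higher and 5 not called. The nuclear RNAs Malat1 and Neat1 stood at 436 and 367 against 6017 and 5368 FPKM and 4.12 and 1.41 against 280.3 and 181 FPKM, and Tug1 at 116 and 111 against 708 and 1105 FPKM. Rn45s, the ribosomal RNA precursor, was higher at 1952 and 2000.1 against 137 and 123 FPKM, although these libraries were selected for poly(A). Of 20 imprinted genes that passed, 9 were lower, 6 higher and 5 not called. The maternally expressed transcripts of the Dlk1 to Dio3 region were all lower, Meg3 at 0.0570 and 0.0410 against 51.6 and 56.7 FPKM, Rian at 1.27 and 1.83 against 19.6 and 32.9 FPKM and Mirg at 0.353 and 0.219 against 135 and 189.7 FPKM. H19 was higher at 18.1 and 15.7 against 3.92 and 6.30 FPKM, and Slc38a4, an amino acid transporter, at 40.1 and 31.6 against 3.50 and 1.85 FPKM.

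The microRNA entries of the table stood apart in count. Of 116 that were members, 99 were lower, 9 higher and 8 not called, with a median of -1.93, against 31.2% of all members lower. The 5 steepest were entries of the miR-17 to miR-92a cluster, whose host is Mir17hg. Their mature sequences are printed because the family is defined by the seed, bases 2 to 8, in capitals; sequences are from RefSeq, build GRCm38.p6, chr14:115043684-115044380, plus strand. The sequence of miR-92a is not printed because its entry in this cluster, Mir92-1, was below 1 FPKM in all 4 libraries.
mmu-miR-17-5p: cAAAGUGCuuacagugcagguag
mmu-miR-20a-5p: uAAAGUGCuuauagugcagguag
mmu-miR-18a-5p: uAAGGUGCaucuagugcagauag
mmu-miR-19a-3p: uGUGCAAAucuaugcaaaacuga
mmu-miR-19b-3p: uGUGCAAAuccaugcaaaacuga

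miR-17 and miR-20a share 1 seed, miR-19a and miR-19b another, and miR-18a differs from the first. The entries Mir17 and Mir20a stood at 0.323 and 0.314 against 140.2 and 127 FPKM and 0.214 and 0.299 against 144 and 147 FPKM, Mir19a and Mir19b-1 at 0.386 and 0.464 against 154 and 155 FPKM and 0.191 and 0.404 against 186 and 186 FPKM, and Mir18 at 0.277 and 0.602 against 225 and 191 FPKM. All 5 were high in both unperfused libraries and below 1 FPKM in both injury-activated ones. Mir17hg itself was 454 and 305 FPKM in the PBS-perfused and 71.01 and 104 FPKM in the PFA-perfused libraries, below both unperfused libraries. Mir22hg, the host of miR-22, fell too, at 237 and 236 against 3898 and 3256 FPKM.

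These entries measure reads of polyadenylated transcripts over hairpins, not mature microRNA. Of the 116, 77 lay inside the span of a measured gene, and 67 of these were lower. Their hosts were lower in 31 cases, higher in 18 and not called in 18, and the median difference was -1.99 for the 77 entries and -0.28 for their hosts. Mir106b, inside the helicase gene Mcm7, was an example chosen after its values were seen: the entry stood at 0.0337 and 0.0176 against 1.93 and 1.01 FPKM, a difference of -1.24, while Mcm7 stood at 177 and 190.3 against 16.4 and 8.31 FPKM, a difference of 3.86. How the submitters' tools shared reads between a hairpin and its host is not given in the sources used here.

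Genes that rose tended to be shorter. The median genomic span, from RefSeq, was 19.1 kb for members called higher and 30.4 kb for those called lower. Among the longest 2158 genes, of 69.19 kb or more, 32% were higher and 44% lower, with a median difference of -0.33, against 51.9% and 30.2% and a median of 0.73 among the shortest 2159. The median longest transcript was 2.91 kb for higher and 4.08 kb for lower genes, and the GC content of transcripts was similar, 49.2% and 49.7%. The part of span or length in the group differences above was not tested.

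Markers of other cell types differed between the groups. The sort removed CD45, CD31 and Sca-1 positive cells. Ptprc, which encodes CD45, stood at 0.203 and 0.250 against 0 and 0.0195 FPKM, and Pecam1, which encodes CD31, at 1.14 and 1.06 against 1.71 and 1.87 FPKM, while Ly6a, which encodes a Sca-1 protein, was higher after injury at 8.40 and 7.58 against 0.535 and 0.687 FPKM. Of 18 macrophage markers 10 passed the filter, 8 of them through only 1 group; 9 were higher and 1 (Cd68, 8.46 and 11.5 against 32.1 and 22.98 FPKM) lower, and their summed FPKM was 90.7 and 98.7 after injury against 36.4 and 27.3. Lyz2 (lysozyme) stood at 42.9 and 44.02 against 0.390 and 0.320 FPKM, Ctss at 11.4 and 12.9 against 0.402 and 0.0937 FPKM and C1qb at 7.26 and 6.27 against 0.246 and 0.0270 FPKM, and Itgam, a defining marker, at 0.416 and 0.430 against 0.00394 and 0.00332 FPKM. The count of 9 became 5 without either injury-activated library. Spp1, Lgals3 and Ctsl are also expressed by macrophages, and the part of such cells in their values was not tested. In bulk libraries fewer cells of a type and less RNA per cell cannot be told apart.

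Connective and vascular markers ran differently. Of 13 fibro-adipogenic markers 5 were higher and 5 lower: Dcn (decorin) stood at 30.7 and 25.8 against 6.46 and 3.23 FPKM and Pdgfra at 6.18 and 5.73 against 0.0843 and 0.965 FPKM, while Pdpn and Dpt, which made up most of the summed level, fell as given above. Of 8 tenocyte markers 5 were higher, 2 lower and 1 not called, among them Tnmd (tenomodulin) at 11.2 and 9.78 against 1.39 and 0.995 FPKM and Kera (keratocan) at 5.66 and 7.49 against 2.37 and 0.786 FPKM. Of 15 endothelial markers 7 passed the filter, 4 of them through only 1 group. Of these 7, 5 were lower and none higher, with Tek at 4.64 and 4.11 against 33.99 and 20.4 FPKM and Vwf at 1.62 and 2.63 against 8.23 and 7.61 FPKM. Tek is also in the quiescence list. Of 12 mural markers 9 passed, 2 of them through only 1 group. Of these 9, 6 were lower and none higher. The 6 included Notch3, also in the quiescence list, and Des, also a satellite cell marker. At an unadjusted limma p under 0.05 no endothelial or clock gene was higher, and among mural markers only Acta2 (smooth muscle actin) was, at 44.01 and 35.2 against 33.2 and 15.04 FPKM. Neutrophil markers had no member, with summed FPKM of 1.18 at most, and 1 of 11 lymphocyte markers passed (Cd79a, lower, 0.196 and 0.0932 against 1.93 and 1.02 FPKM). Of 4 Schwann and glial markers that passed 2 were lower and 1 higher, and neither of 2 haemoglobin genes was called. The matrix values above were not tested for the part of these cells.

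The satellite cell markers themselves were checked against the label of the sort. Of 14, all passed the filter, 11 were lower after injury, 1 (Vcam1) higher and 2 (Itga7 and Cdh15) not called; Musk, of the neuromuscular junction and satellite cells, stood at 43.5 and 45.7 against 864 and 1224 FPKM. Sdc4 made up most of their summed level in unperfused cells, and 13 of the 14 were at 1 FPKM or more in all 4 libraries. The exception was Calcr, which was below 1 FPKM in both injury-activated libraries, and Vcam1 is the antigen of the sort.

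**Figure D5:**
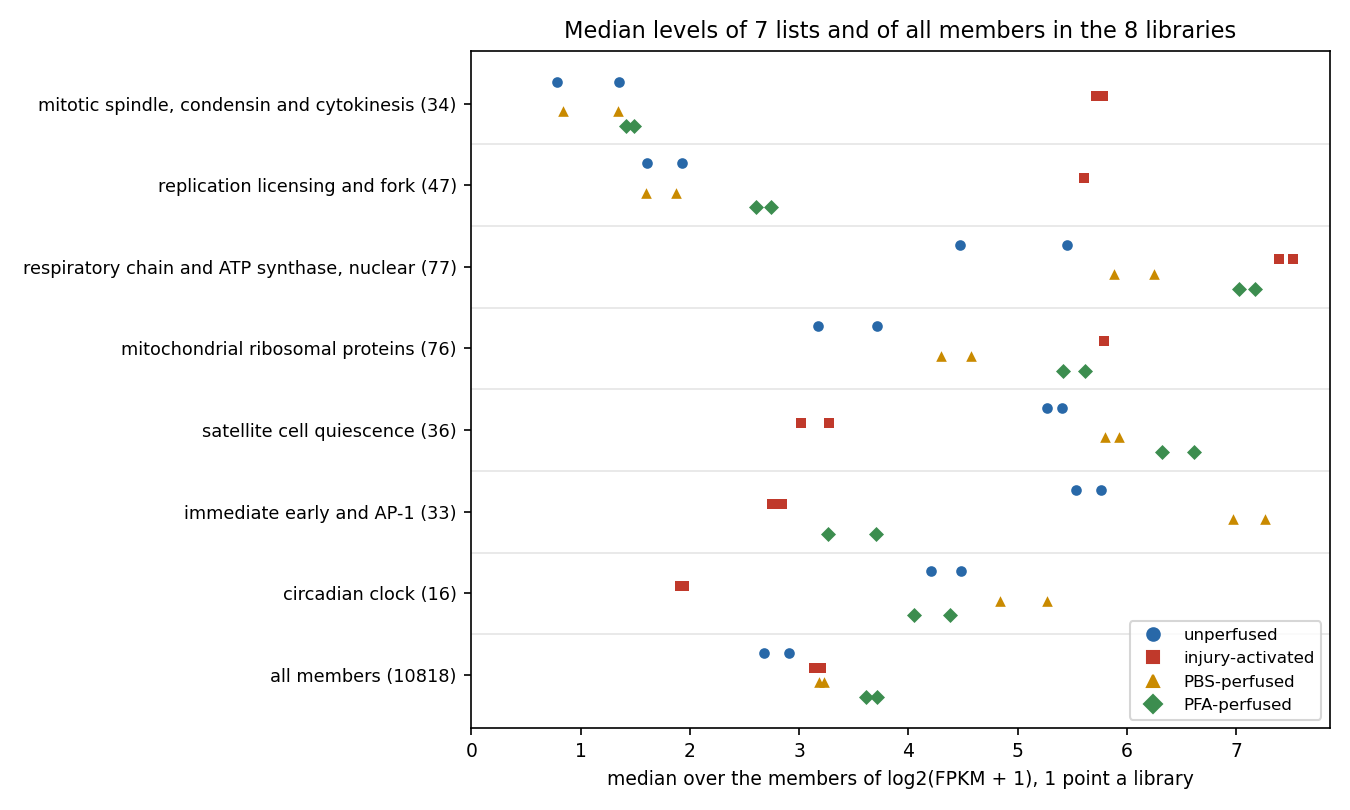
Median log2(FPKM + 1) of 7 gene lists and of all members in each of the 8 libraries (x axis, 1 point per library, with 1 row per list and the groups in separate colours and symbols). Replication and spindle lists are highest in the injury-activated pair, at 5.61 and 5.61 and at 5.72 and 5.78, and the early response list is highest in the PBS-perfused pair.

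Placed in the whole series, the cell cycle lists separated the injured condition from the other groups. The median log2(FPKM + 1) of the 47 replication genes was 5.61 in both injury-activated libraries and between 1.60 and 2.74 in the other 6, and that of the 34 spindle genes was 5.72 and 5.78 against 0.78 to 1.49. The clock list was 1.95 and 1.91 after injury and 4.05 to 5.27 in the other 6 libraries, and the quiescence list 3.27 and 3.02 against 5.27 to 6.61. The mitochondrial ribosomal list did not separate in this way, at 5.79 in both injury-activated libraries against 5.62 and 5.42 in the PFA-perfused pair. The genes called lower after injury had medians of 11.8 FPKM in unperfused cells, 11.5 FPKM with PBS and 11.3 FPKM with PFA perfusion, against 2.38 FPKM after injury. Single genes differed from these medians. Spry2 stood at 10.2 and 12.99 FPKM with PBS and 2.65 and 4.25 FPKM with PFA, below the injury-activated pair of 13.6 and 14.2 FPKM. The genes called higher had 17 FPKM after injury, 11.2 FPKM with PFA, 5.7 FPKM with PBS and 3.47 FPKM in unperfused cells. The choice of genes by their call sets the direction between the injury-activated and unperfused values, which are given as a description.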

How the data were processed

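RNA was measured in 8 bulk libraries, and 4 of them, the injury-activated and unperfused pairs, were compared. The deposited values are FPKM, which the authors made on mm9; the submitters' processing notes list StringTie 1.3.3, STAR 2.5.3a and R 3.4.1 with no roles; the file names no unit, and FPKM was inferred from the tool and from column totals that differ between libraries. Fragment assignment and annotation are not given in the sources used here. Genes with at least 1 FPKM in at least 2 of the 8 libraries (12515) were fitted with limma 3.58.1 in R 4.3.3 on log2(FPKM + 1), with 4 groups, a trend in the prior variance and Benjamini-Hochberg adjustment over all of them; tests were two-sided. With 2 libraries a group, an exact permutation test could not pass the threshold. Members and gene lists were chosen with earlier results of these data known. Named genes were the 20 largest rises and falls at a mean of at least 10 FPKM, the 10 largest in FPKM, fixed anchors and up to 6 members of each of 65 lists. Alternatives covered scaling, filters, the pseudocount, the libraries fitted and a replicate block. Promoters, microRNAs and spans came from RefSeq GRCm38.p6 by symbol; 78.7% of members had a promoter, and no coordinates of the deposited build were used.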

Additional observations from a re-analysis of the deposited data

How the results depend on the processing

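Across 14 alternatives no call among members turned direction. The count of genes higher after injury, 4970 as reported, lay between 3993 and 4940 when 1 library was left out, and the count lower, 3373, between 2789 and 3100; leaving out a library leaves its group with 1, which is then assumed to vary like the other groups. Of the named genes, Ctnnb1 ranged from -0.217 to 0.165 and Dek from -0.663 to 0.021 when 1 library was left out, with the change of sign without unperfused replicate 1 and 2 respectively, and neither was called there; the cause was not tested. Same-numbered libraries showed no shared deviation: the replicate differences of the groups correlated at -0.049 across members. With 2 libraries a group this cannot show whether libraries were handled as pairs. With a replicate block 5035 genes were higher and 3400 lower. Quantile normalization gave 4348 higher and 3900 lower, and removing the filter 4675 and 3169. The unperfused pair, whose spread was the wider, and the unknown read depth limit what could be said of genes near 1 FPKM.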
